A study of Mus musculus with 6 samples.

Results

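Transcript levels of the circadian clock were followed in the livers of ethanol-fed and pair-fed wild type mice, using 10 genes: Arntl, Clock, Npas2, Per1, Per2, Per3, Cry1, Nr1d1, Nr1d2 and Dbp. They were found by gene name in a liver RNA-seq table of 13273 rows. Each had 1 row, or the row with the higher mean where a name was repeated. This rule uses no measured difference between the diets, but the genes were listed with earlier results of these data known. The ETOH-WT group was 3 C57Bl/6 wild type mice that took a Lieber-DeCarli liquid diet with ethanol increased stepwise up to 6.4% (v/v). The PF-WT group consisted of 3 wild type mice of the same strain pair-fed the matched isocaloric diet without ethanol. All 6 mice were females, 2 months old at the start, housed 2 to a cage, and their livers were taken in the morning at 3 weeks, with 1 library per mouse. The sample codes are shared within a diet and differ between the diets, so whatever they mark cannot be told apart from diet. Fresh diet was put in late in the afternoon. The clock hour at which each mouse was killed is not stated in the sources read, and with 1 time point a shift in the timing of the clock and a change in its level cannot be told apart.

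In mammals the clock is a transcriptional loop. The proteins of Arntl (also called BMAL1) and of Clock, or of its relative Npas2, bind E-box elements as a pair and switch on the Per and Cry genes, whose proteins then return to the nucleus and repress that pair. The same pair switches on Nr1d1 and Nr1d2, which encode the nuclear receptors REV-ERBα and REV-ERBβ. These receptors repress Arntl, Clock, Npas2 and Cry1 through ROR elements (ROREs), so that RORE genes and E-box genes peak at opposite times of day. Dbp, the best known output of the loop, encodes a PAR bZIP factor that binds D-box elements in Per genes and in liver genes of drug and lipid metabolism. In mouse liver, feeding time is a strong cue for the phase of all these transcripts.

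The RefSeq promoter windows of the members show which of these elements lie close to a start site. The RefSeq table of GRCm38.p6 gave 13 windows for 9 of the 10 members (all but Per2), each of 300 bases with 250 before the start and 50 after it. The letters CACGTG (E-box), TTANGTAA (D-box) and AANT followed by AGGTCA (RORE) were searched on both strands, and 4 members held at least 1 match. Those 4 windows are printed 5′ to 3′ on the gene's own strand, with the matched element in capitals.

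Arntl, chr7:113207261-113207560, plus strand, RORE beginning 27 bases after the start: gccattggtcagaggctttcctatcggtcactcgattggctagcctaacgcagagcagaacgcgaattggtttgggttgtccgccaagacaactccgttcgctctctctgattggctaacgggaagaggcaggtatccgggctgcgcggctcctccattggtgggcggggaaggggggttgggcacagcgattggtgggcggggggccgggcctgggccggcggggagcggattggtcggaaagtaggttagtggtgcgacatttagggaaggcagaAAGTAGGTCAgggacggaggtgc

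Per1, chr11:69098699-69098998, plus strand, E-box beginning 166 bases before the start: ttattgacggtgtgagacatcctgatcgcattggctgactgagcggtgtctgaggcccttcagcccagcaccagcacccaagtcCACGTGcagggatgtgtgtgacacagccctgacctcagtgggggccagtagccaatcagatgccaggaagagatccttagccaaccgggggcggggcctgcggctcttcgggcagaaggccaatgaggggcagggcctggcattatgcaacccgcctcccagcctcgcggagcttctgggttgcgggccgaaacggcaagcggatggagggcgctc

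Per3, chr4:151044616-151044915, minus strand, D-boxes beginning 205 and 158 bases before the start: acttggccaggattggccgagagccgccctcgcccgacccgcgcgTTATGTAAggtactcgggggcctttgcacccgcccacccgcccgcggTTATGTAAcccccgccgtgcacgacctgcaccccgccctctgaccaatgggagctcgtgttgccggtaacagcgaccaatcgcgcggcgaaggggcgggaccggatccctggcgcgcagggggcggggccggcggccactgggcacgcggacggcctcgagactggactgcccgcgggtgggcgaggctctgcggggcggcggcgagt

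Cry1, chr10:85185005-85185304, minus strand, E-box beginning 60 bases before the start: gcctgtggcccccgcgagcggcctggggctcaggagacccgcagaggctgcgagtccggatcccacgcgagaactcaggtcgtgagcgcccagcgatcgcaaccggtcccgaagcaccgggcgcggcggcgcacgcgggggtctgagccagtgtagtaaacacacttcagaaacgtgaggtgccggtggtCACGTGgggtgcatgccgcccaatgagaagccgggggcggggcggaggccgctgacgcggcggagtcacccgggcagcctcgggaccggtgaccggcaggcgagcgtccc

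An E-box stood in 7.15% of all 32851 windows, a D-box in 2.32% and the RORE letters in 0.219%. The windows of Clock, Npas2, Nr1d1, Nr1d2 and Dbp held none of these letters, which says only that the letters are absent from those bases. A match is a description of the sequence and was not measured as a bound site.

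RNA quality and depth can be judged only in part from the deposited values. They were fragments per kilobase of transcript scaled to library size (FPKM), a unit inferred from the values, and their sums over all rows lay between 570652 and 625003 in ETOH-WT livers and between 567808 and 577297 in PF-WT livers. Low values did not fall on steps that would give the number of fragments, so the depth is unknown. Libraries of the same diet correlated at r = 0.984 to 0.992 across genes, and libraries of different diets at 0.973 to 0.979. The liver of ETOH-WT mouse 1 stood apart by 1 gene, Fbxw7, which had 52059.9 FPKM there (8.33% of the sum) against 1.78 to 2.37 FPKM in the other 5 livers. It was also the only library with no row at 0, and its median-ratio scale factor of 1.02 lay within the 0.948 to 1.02 of all 6 libraries. Hepatocyte markers summed to 71540 to 78570 FPKM in ETOH-WT livers and to 77570 to 90010 FPKM in PF-WT livers. Of the 9 hepatocyte markers tested 1 was called, higher in ETOH-WT livers, and the 1 pancreas marker tested was lower. Over all genes tested, 6.64% were called in either direction. None of the tested markers of stellate, Kupffer, endothelial, bile duct, neutrophil, lymphoid, erythroid and muscle cells was called, and no adipocyte marker had a row. Fewer cells of a type and less RNA per cell cannot be told apart in whole liver.

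The core clock and Dbp did not pass the test for a difference between the diets. Of the 9 members with a mean of at least 0.5 FPKM, 0 were called higher and 0 lower in ETOH-WT livers (limma on log2(FPKM + 1), two-sided, Benjamini-Hochberg adjusted p under 0.05), where 3.97% of the 11346 genes tested were called higher, 2.67% lower and 6.64% in either direction. Per3 was the 1 member with an unadjusted p under 0.05, against 23.7% of all genes. Fold changes on the log2(FPKM + 1) scale were below 0 for 8 of the 9, with Clock as the exception, and 45.9% of all genes lay below 0. The median over the 9 members was -0.23, beside 0.02 over all genes tested. The members' counts were 0 in each of 15 alternative analyses. The p-values set the difference between the diets against the spread between 3 mice a diet. Limma estimates that spread in part from all genes tested.

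**Figure D1:**
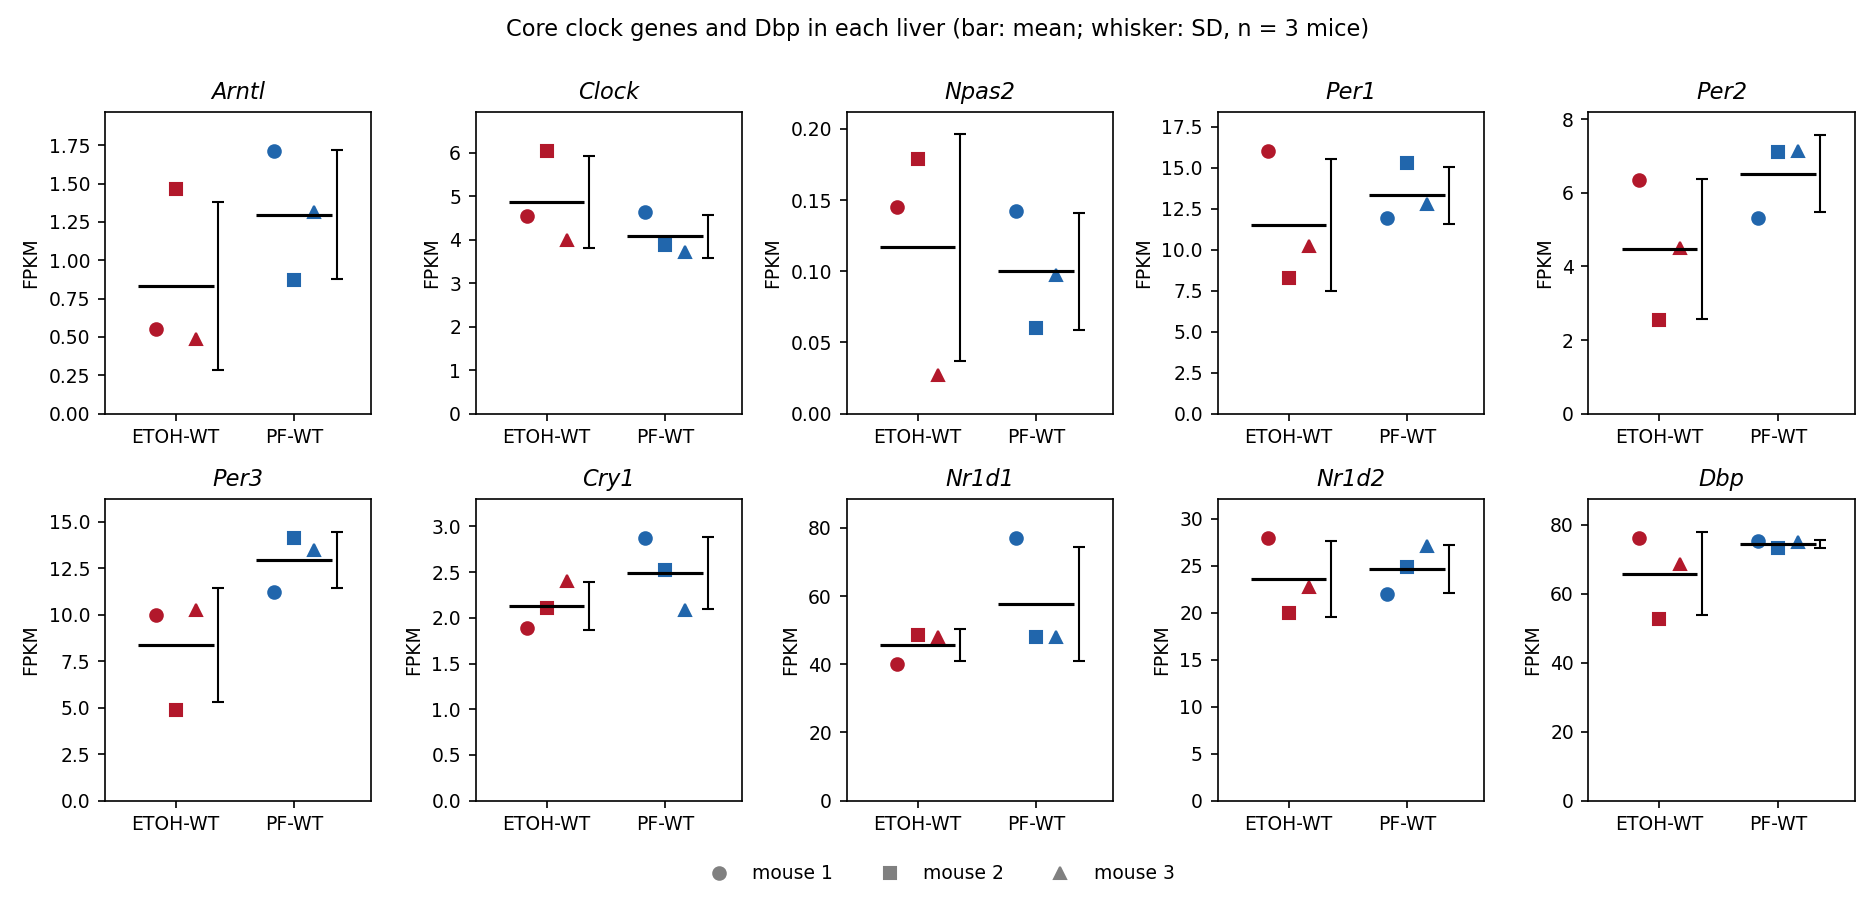
Transcript level (FPKM, vertical axes from 0) of each of the 10 genes in 3 ETOH-WT livers (red, left) and 3 PF-WT livers (blue, right), with each mouse as a point, the mean as a bar and the SD as a whisker. Per3 is the only panel without overlap of the diets, and for Per1, Per2, Per3 and Dbp the lowest point is ETOH-WT mouse 2.

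Mean levels ran from 0.117 FPKM (Npas2) to 65.8 FPKM (Dbp) in ETOH-WT livers and from 0.0999 to 74.4 FPKM for the same genes in PF-WT livers. By mean FPKM, a scale per transcript length, the order in ETOH-WT livers was Dbp, Nr1d1, Nr1d2, Per1, Per3, Clock, Per2, Cry1, Arntl and Npas2. Per1 and Per3, Per3 and Clock, and Clock and Per2 overlapped among the 3 ETOH-WT livers, while the other neighbours did not. In PF-WT livers Per2 stood above Clock, and the rest of the order was the same. There Dbp overlapped with Nr1d1 and Per1 overlapped with Per3. Genes grouped here as E-box genes thus filled the first 5 places on both diets. The last 3 were Cry1, Arntl and Npas2, grouped as RORE genes, although Cry1 has both E-boxes and ROREs in mice.

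The activators Arntl and Npas2 were low in every liver. Arntl encodes the BMAL1 subunit of the activator pair. It had 0.549, 1.47 and 0.487 FPKM in ETOH-WT livers 1, 2 and 3. PF-WT livers 1, 2 and 3 had 1.71, 0.869 and 1.31 FPKM. ETOH-WT mouse 2 thus stood among the PF-WT livers, and the other ETOH-WT mice lay below all of them. The means were 0.834 ± 0.549 FPKM in ETOH-WT and 1.30 ± 0.422 FPKM in PF-WT (SD, n = 3 each), a log2 fold change of -0.35 (SE 0.22, 95% interval -0.85 to 0.16, limma adjusted p = 0.380). Arntl lies at chr7:113207465-113314126 (GRCm38, as all positions of genes here), and 33 of its 7523 exonic bases are shared with the antisense gene Gm45355. Npas2 (chr1:39193731-39363236), whose protein can stand in for CLOCK, had 0.145, 0.179 and 0.0269 FPKM in ETOH-WT livers, against 0.142, 0.0600 and 0.0976 FPKM in PF-WT livers. With a mean under 0.5 FPKM it was not tested, and its ETOH-WT values lay both above and below those of PF-WT.

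Clock was the only member with a fold change above 0. Its product is the usual DNA-binding partner of BMAL1 (gene at chr5:76209868-76304792). It had 4.55, 6.04 and 3.99 FPKM in ETOH-WT livers, against 4.64, 3.88 and 3.71 FPKM in PF-WT livers, and the highest value was that of ETOH-WT mouse 2. The diets overlapped, and the log2 fold change was 0.20 (SE 0.15, 95% interval -0.14 to 0.53, limma adjusted p = 0.465). Arntl and Clock therefore had estimates of opposite sign, both with intervals that include 0.

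Per3 and Per2, repressor genes that E-boxes drive, held the lowest estimates of the members. Per3 (chr4:151003652-151044665), the Period gene least needed for rhythm in mice, had 9.98, 4.85 and 10.3 FPKM in ETOH-WT livers, against 11.2, 14.1 and 13.5 FPKM in PF-WT livers. All ETOH-WT livers lay below all PF-WT livers, as did 11.2% of all genes tested (29.1% separated the diets in either direction), and mouse 2 lay far below mice 1 and 3. The means were 8.37 ± 3.05 FPKM in ETOH-WT and 12.9 ± 1.52 FPKM in PF-WT (SD, n = 3 each), with a log2 fold change of -0.63 (SE 0.24, 95% interval -1.19 to -0.07, unadjusted p = 0.0317, limma adjusted p = 0.166). From the lowest fold change it ranked 313 of 11346 genes. Without ETOH-WT mouse 2 its fold change was -0.32 (limma adjusted p = 0.177), and over the 15 alternatives it ranged from -0.79 to -0.32 with adjusted p between 0.0736 and 0.37.

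Per2, too, was lowest in ETOH-WT mouse 2. Its protein is a main repressor of CLOCK and BMAL1, and the gene also responds directly to glucocorticoids and to temperature in mice. Per2 (chr1:91415982-91459324) had 6.34, 2.54 and 4.50 FPKM in ETOH-WT livers, against 5.31, 7.10 and 7.13 FPKM in PF-WT livers. ETOH-WT mouse 1 fell within the PF-WT values, and mice 2 and 3 fell below them. The log2 fold change was -0.51 (SE 0.25, 95% interval -1.09 to 0.06, unadjusted p = 0.0723, limma adjusted p = 0.259), and without ETOH-WT mouse 2 it was -0.23.

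Per1 (chr11:69095217-69109960), an immediate responder to glucocorticoids and cAMP as well as an E-box gene, had both the highest and the lowest value in ETOH-WT livers. It had 16.0, 8.29 and 10.2 FPKM in ETOH-WT livers, against 11.9, 15.3 and 12.8 FPKM in PF-WT livers. The log2 fold change was -0.23 (SE 0.21, 95% interval -0.72 to 0.25, limma adjusted p = 0.545), which moved to -0.04 when ETOH-WT mouse 2 was left out and to -0.48 when mouse 1 was left out instead.

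Cry1 (chr10:85131702-85185054), a cryptochrome gene with both E-boxes and ROREs in mice, had its lowest value in ETOH-WT mouse 1 and its highest in PF-WT mouse 1. Its 3 ETOH-WT livers had 1.88, 2.11 and 2.40 FPKM, against 2.87, 2.52 and 2.09 FPKM in PF-WT livers. The diets overlapped, with a log2 fold change of -0.16 (SE 0.12, 95% interval -0.44 to 0.13, limma adjusted p = 0.488).

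Among the REV-ERB genes, a single PF-WT liver set the difference of Nr1d1. Nr1d1 had 40.1, 48.5 and 48.0 FPKM in ETOH-WT livers, against 77.1, 48.1 and 47.9 FPKM in PF-WT livers. PF-WT mouse 1 stood above the other 5 livers, which lay between 40.1 and 48.5 FPKM. The log2 fold change was -0.30 (SE 0.18, 95% interval -0.73 to 0.12, limma adjusted p = 0.364), and -0.08 without PF-WT mouse 1. Nr1d1 (chr11:98767932-98775333) shares 263 of its 3077 exonic bases, or 8.55%, with Thra on the other strand, and the sources read do not say whether counting used strand. Thra itself had a log2 fold change of 0.20 (limma adjusted p = 0.328).

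Nr1d2 (chr14:18204054-18239127), whose product overlaps in role with that of Nr1d1, had nearly the same level on both diets. It had 28.0, 20.0 and 22.7 FPKM in ETOH-WT livers, against 22.0, 24.9 and 27.1 FPKM in PF-WT livers, and the ETOH-WT livers held both the highest and the lowest value. The log2 fold change was -0.07 (SE 0.14, 95% interval -0.38 to 0.24, limma adjusted p = 0.800), and its sign changed without ETOH-WT mouse 2, where it was 0.036.

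Dbp, the output gene, was the most abundant member and was even among PF-WT livers. Its 3 ETOH-WT livers had 76.2, 52.6 and 68.7 FPKM, against 75.2, 73.2 and 74.9 FPKM in PF-WT livers. ETOH-WT mouse 1 was just above all PF-WT livers and the other ETOH-WT mice were below them. The highest value was 1.45 times the lowest in ETOH-WT livers and 1.03 times in PF-WT livers. The log2 fold change was -0.19 (SE 0.13, 95% interval -0.50 to 0.11, limma adjusted p = 0.425), and -0.04 without ETOH-WT mouse 2. Dbp (chr7:45705088-45710203) shares 539 of its 2993 exonic bases, or 18.0%, with Sphk2 on the other strand, which had a log2 fold change of -0.03 (limma adjusted p = 0.892).

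**Figure D2:**
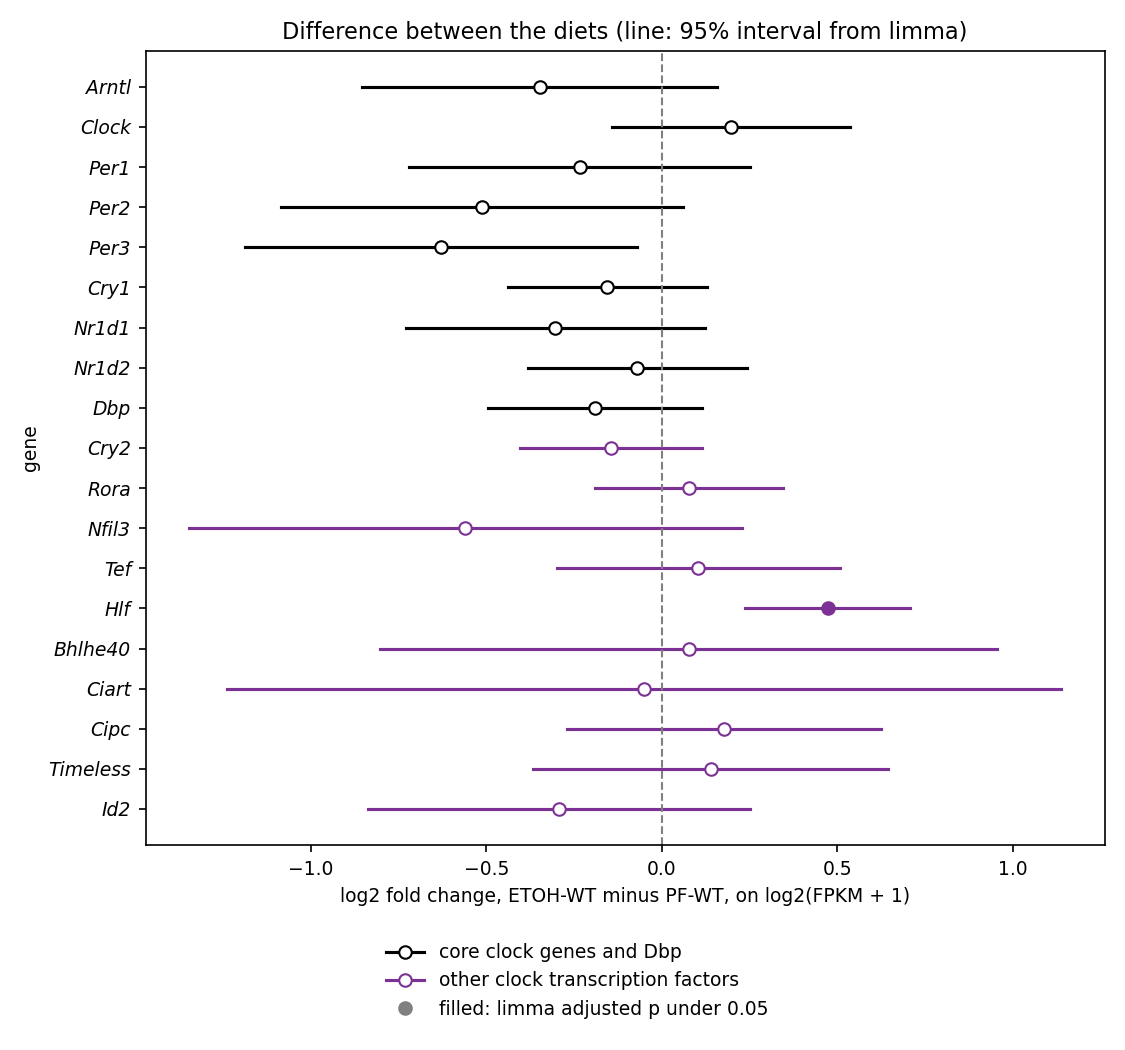
Log2 fold change of ETOH-WT over PF-WT on log2(FPKM + 1) for the 9 tested members (black) and 10 other clock transcription regulators (purple, labelled transcription factors), with 95% intervals from limma over 3 livers a diet. Per3 is the only member whose interval, -1.19 to -0.07, leaves out 0, and Hlf is the only gene drawn filled, with an adjusted p under 0.05.

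Several members spread more between mice on 1 diet than most liver genes did. The within-diet SD of log2(FPKM + 1) was at percentile 96.1 of all genes tested for Per2, at 95.8 for Per3, at 94.1 for Arntl, at 93.7 for Per1 and at 90.5 for Nr1d1. Cry1 was at 50, and Clock, Nr1d2 and Dbp lay between 70.8 and 75.1. The Period genes spread more widely in ETOH-WT livers. The highest over the lowest value was 1.93 in ETOH-WT and 1.28 in PF-WT for Per1, 2.5 in ETOH-WT and 1.34 in PF-WT for Per2, and 2.12 in ETOH-WT and 1.26 in PF-WT for Per3. Nr1d1 went the other way, with 1.21 in ETOH-WT and 1.61 in PF-WT. These spreads were not tested against each other.

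**Figure D3:**
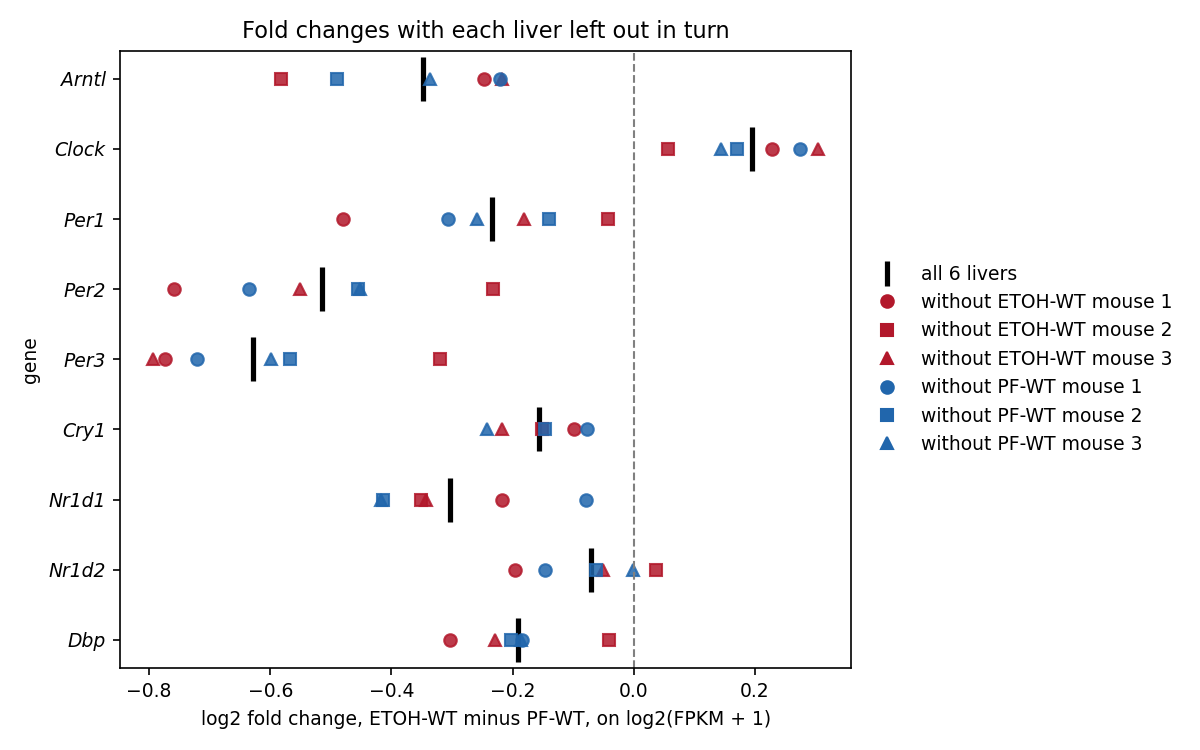
Log2 fold change of ETOH-WT over PF-WT for the 9 tested members with all 6 livers (black bar) and with each liver left out in turn (red, an ETOH-WT liver; blue, a PF-WT liver). Leaving out ETOH-WT mouse 2 brings Per1 to -0.04, Per2 to -0.23, Per3 to -0.32 and Dbp to -0.04, and leaving out PF-WT mouse 1 brings Nr1d1 to -0.08.

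The ETOH-WT livers differed from one another most visibly in the E-box arm of the loop. This pattern was noticed after the values were seen and is given as a description. The E-box arm was taken as Per1, Per2, Per3, Nr1d1, Nr1d2, Dbp, Tef, Hlf, Bhlhe40, Ciart and Cry2, the 11 tested of 12 genes listed as driven by E-boxes. ETOH-WT mouse 2 had the lowest of the 6 values for 9 of them, or 81.8%, where it had the lowest value for 19% of all genes tested. The exceptions were Nr1d1 and Hlf. Cry1, which has both E-boxes and ROREs, was left out of this arm and counted with the RORE genes. Its lowest liver was ETOH-WT mouse 1 (1.88 FPKM), with 2.11 FPKM in ETOH-WT mouse 2. ETOH-WT mouse 1 had the highest of the 6 values for 7 of the 11, or 63.6%, against 19.1% of all genes. Among the 3 ETOH-WT livers alone, mouse 2 was lowest for 10 of the 11 (90.9%, against 36.5% of all genes), and mouse 1 was highest for 9.

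Set against the PF-WT mean on the log2(FPKM + 1) scale, the lowest deviations of ETOH-WT mouse 2 were -1.37 for Ciart, a repressor of CLOCK and BMAL1, -1.25 for Per3 and -1.08 for Per2. Its deviations for Per1, Dbp and Nr1d2 were -0.62, -0.49 and -0.28. In the same liver the RORE genes Clock and Arntl deviated by 0.48 and 0.12, and Nfil3 and Cry1 by -0.35 and -0.16. It was the highest liver for 1 of the 5 tested RORE genes (20%, against 24.2% of all genes). ETOH-WT mouse 1 deviated by 1.13 for Bhlhe40, which encodes the repressor DEC1, 0.83 for Ciart, -0.55 for Arntl and -1.02 for Nfil3, a RORE gene whose product competes with DBP at D-boxes. Ratios within a liver, which do not depend on its scaling, were taken between genes chosen after their values were seen. The ratio of Dbp to Arntl in FPKM was 139, 35.9 and 141 in ETOH-WT livers 1, 2 and 3, against 43.9, 84.3 and 57 in PF-WT livers. The ratio of Per3 to Clock was 2.19, 0.803 and 2.58 in ETOH-WT livers, against 2.42, 3.64 and 3.64 in PF-WT livers. ETOH-WT mouse 2 was thus the lowest of the 6 livers in both ratios, while the other ETOH-WT livers had the highest ratios of Dbp to Arntl. For Per3 to Clock, mouse 1 also lay below every PF-WT liver.

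**Figure D4:**
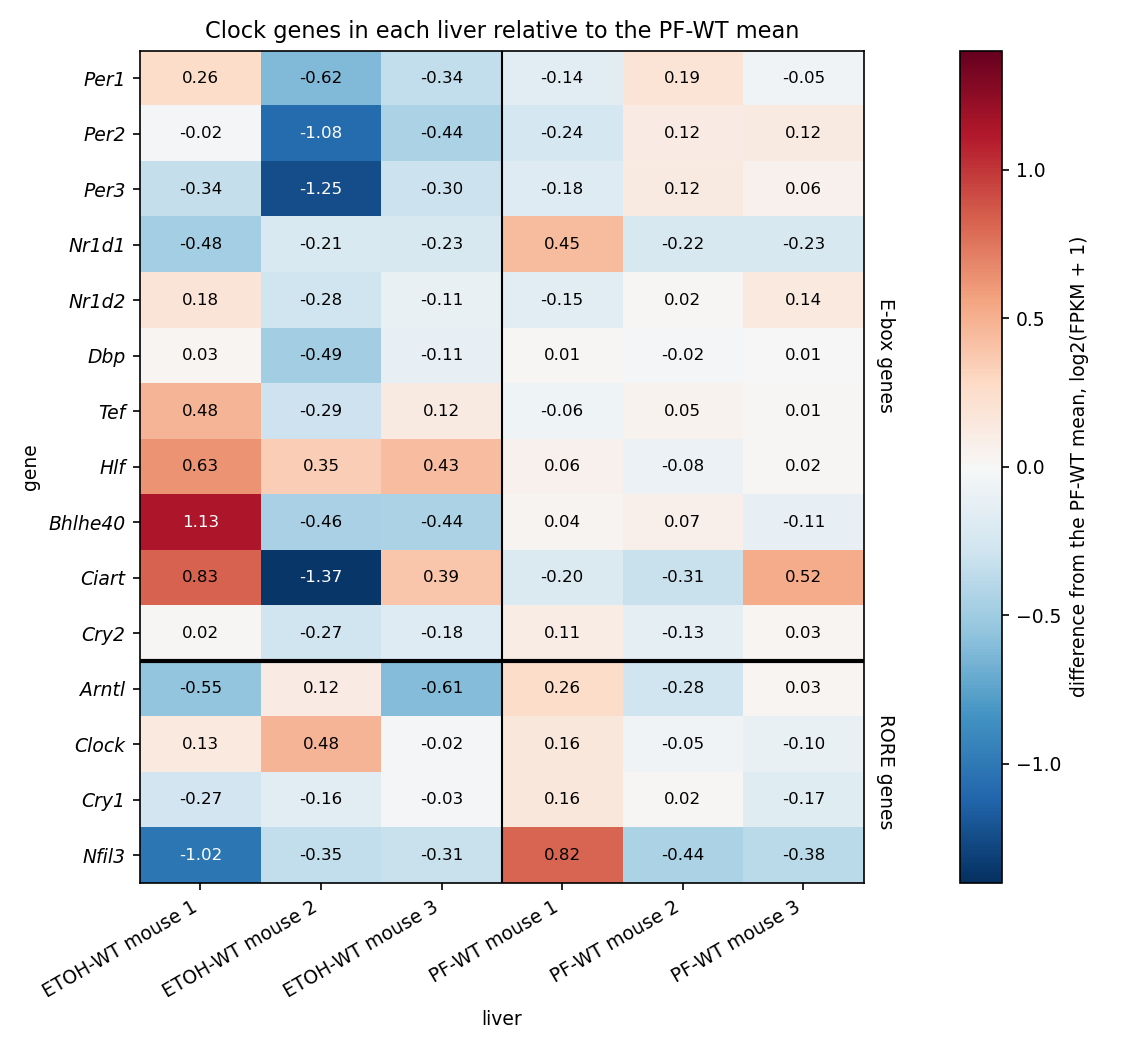
Difference from the PF-WT mean on log2(FPKM + 1) for 11 E-box genes (above the line) and 4 RORE genes (below it) in 3 ETOH-WT livers (left) and 3 PF-WT livers (right), red for above and blue for below that mean. The column of ETOH-WT mouse 2 is blue for all E-box genes but Hlf, down to -1.37 for Ciart, and PF-WT mouse 1 reaches 0.82 for Nfil3 and 0.45 for Nr1d1.

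Among the PF-WT livers, mouse 1 stood out for RORE genes. It had the highest of the 6 values for 3 of the 5 tested RORE genes, Arntl, Cry1 and Nfil3, against 21.7% of all genes. For Nfil3 it had 15.2 FPKM, where the other PF-WT livers had 5.81 and 6.11 FPKM and the ETOH-WT livers had 3.56, 6.25 and 6.42 FPKM. The log2 fold change of Nfil3 was -0.56 (SE 0.34, limma adjusted p = 0.364). The same liver also had the highest Nr1d1, an E-box gene.

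Hlf, a PAR bZIP factor like Dbp, was the only listed clock transcription regulator outside the 10 members that was called. Hlf had 22.0, 17.8 and 19.0 FPKM in ETOH-WT livers, against 14.5, 13.0 and 14.0 FPKM in PF-WT livers. All ETOH-WT livers lay above all PF-WT livers, with means of 19.6 ± 2.13 FPKM in ETOH-WT and 13.8 ± 0.731 FPKM in PF-WT (SD, n = 3 each) and a log2 fold change of 0.47 (SE 0.10, 95% interval 0.24 to 0.71, limma adjusted p = 0.0351). The call did not hold without ETOH-WT mouse 1 (adjusted p = 0.0799), ETOH-WT mouse 3 (0.106), PF-WT mouse 1 (0.0645), PF-WT mouse 2 (0.145) or PF-WT mouse 3 (0.0719), though the fold change stayed between 0.39 and 0.53. Of the 14 genes listed as other clock transcription regulators, 13 were in the table and 11 were tested. Of these 1 was higher and 0 were lower, where 3.97% of all genes were called higher and 2.67% lower, and the median was 0.08.

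Of the other genes on that list, Tef, Bhlhe40 and Ciart spread widely among the ETOH-WT livers. Tef, the third PAR bZIP factor, had 74.2, 43.1 and 57.7 FPKM in ETOH-WT livers, against 50.9, 54.7 and 53.4 FPKM in PF-WT livers (log2 fold change 0.10, limma adjusted p = 0.767). Bhlhe40 had 140.7, 46.3 and 46.7 FPKM in ETOH-WT livers, against 65.7, 67.2 and 59.0 FPKM in PF-WT livers (0.08, 0.929). Ciart had 13.0, 2.06 and 9.29 FPKM in ETOH-WT livers, against 5.84, 5.35 and 10.3 FPKM in PF-WT livers (-0.05, 0.966). In all 3 genes ETOH-WT mouse 1 was highest and ETOH-WT mouse 2 lowest of the 6 livers. Cry2, the other cryptochrome, had a log2 fold change of -0.14 (limma adjusted p = 0.480), and Id2, an inhibitor of helix-loop-helix factors, one of -0.29 (0.495). Rora, a receptor that activates through ROREs, had 0.08 (0.738), and Cipc and Timeless had 0.18 and 0.14 (0.628 and 0.752). Bhlhe41 and Arntl2 averaged under 0.5 FPKM over the 6 livers and were not tested. Arntl2, a paralogue of Arntl, averaged 0.236 FPKM in ETOH-WT and 0.521 FPKM in PF-WT without overlap.

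Genes whose proteins modify or degrade clock proteins did not pass the test either. The list held 21 genes, all tested, among them the casein kinases Csnk1d and Csnk1e and the AMPK subunits. Of them 0 were higher and 0 lower by limma, where 6.64% of all genes were called in either direction. At an unadjusted p under 0.05, 2 were higher and 1 lower, against 23.7% of all genes, and the median was 0.03. The list also holds Fbxw7, whose log2 fold change of 4.69 rests on ETOH-WT mouse 1 (limma adjusted p = 0.437). Chosen after their values were seen, the 2 above 0 were Usp9x, a deubiquitinase (log2 fold change 0.33, limma adjusted p = 0.0788), and Prkaa2, a catalytic subunit of AMPK (0.31, 0.112). Usp9x had 13.3, 15.6 and 13.4 FPKM in ETOH-WT livers, against 10.9, 10.9 and 11.3 FPKM in PF-WT livers, without overlap.

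Among liver genes known to cycle under the clock, Upp2 fell and Pnpla2 rose in ETOH-WT livers. Of 18 such genes, all tested, 1 was higher and 1 lower in ETOH-WT livers, where 3.97% of all genes were higher and 2.67% lower. At an unadjusted p under 0.05, 6 were higher and 1 lower, against 23.7% of all genes in either direction, and the median was 0.21. Upp2, a uridine phosphorylase with a strong daily rhythm in mouse liver, had 105, 105 and 125 FPKM in ETOH-WT livers, against 235, 249 and 283 FPKM in PF-WT livers. Upp2 fell to 112 ± 11.4 FPKM in ETOH-WT livers, against 255 ± 24.6 FPKM in PF-WT livers (SD, n = 3 each), with a log2 fold change of -1.19 (SE 0.11, limma adjusted p = 0.00223), and the call held in all 15 alternatives. Pnpla2, which encodes the triglyceride lipase ATGL, had 48.2, 43.1 and 49.1 FPKM in ETOH-WT livers, against 33.5, 32.5 and 32.7 FPKM in PF-WT livers. Its log2 fold change was 0.49 (SE 0.08, limma adjusted p = 0.0175), and the call did not hold without ETOH-WT mouse 3 (0.0784) or PF-WT mouse 2 (0.0857).

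Several other output genes spread widely among the ETOH-WT livers. The genes that were higher only at the unadjusted level were, chosen after their values were seen, Alas1, Rgs16, Wee1, Gys2 and Slc45a3, with limma adjusted p from 0.0854 to 0.186. Rgs16, a regulator of G-protein signalling, had 560.3, 226 and 247 FPKM in ETOH-WT livers, against 128, 171 and 225 FPKM in PF-WT livers. Wee1, a mitotic kinase with E-boxes in its promoter in mice, had 7.59, 3.08 and 5.23 FPKM in ETOH-WT livers, against 2.33, 3.29 and 3.24 FPKM in PF-WT livers. Usp2, a deubiquitinase, had 36.4, 8.82 and 21.8 FPKM in ETOH-WT livers, against 7.01, 9.26 and 12.3 FPKM in PF-WT livers (limma adjusted p = 0.220). Among the 3 ETOH-WT livers, mouse 2 was lowest in 12 of the 18 output genes, or 66.7%, against 36.5% of all genes. Its values for Wee1 and Usp2 lay within those of PF-WT, while mice 1 and 3 lay above all PF-WT livers.

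**Figure D5:**
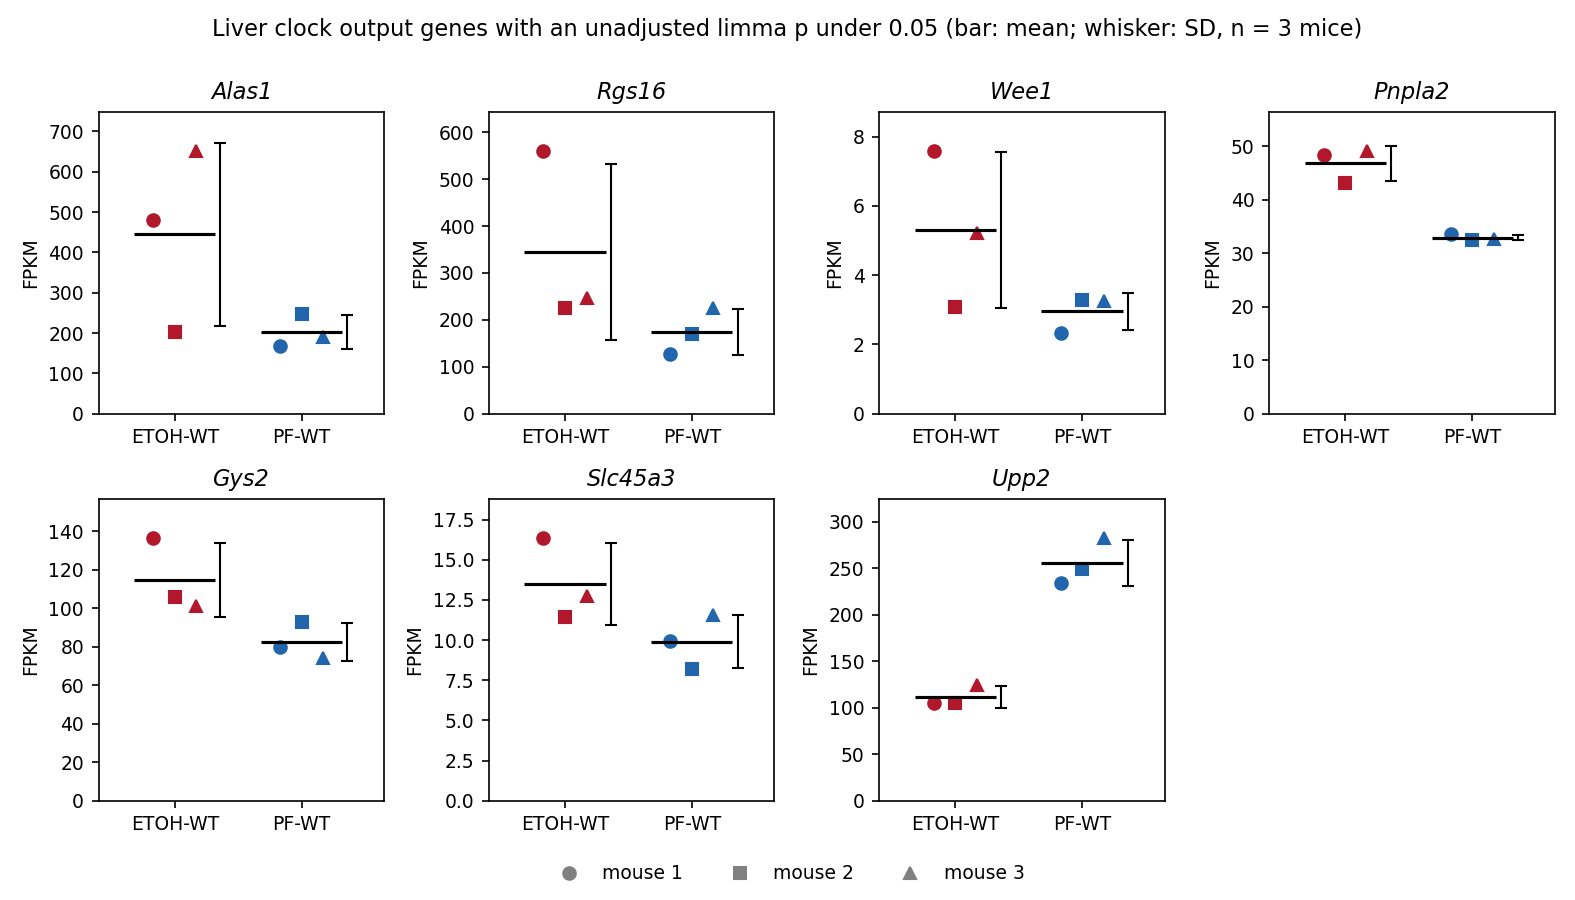
Transcript level (FPKM, vertical axes from 0) of the 7 clock output genes of liver with an unadjusted limma p under 0.05 in 3 ETOH-WT livers (red, left) and 3 PF-WT livers (blue, right), with the mean as a bar and the SD as a whisker. Upp2 and Pnpla2 separate the diets with little spread, and Rgs16 and Gys2 also separate them without overlap. ETOH-WT mouse 2 is the lowest of its diet in every panel but Gys2.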

How the data were processed

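RNA-seq libraries of 6 livers, 3 from ETOH-WT mice and 3 from PF-WT mice, were grouped and numbered by their labels. The authors deposited 1 table with a column of FPKM per library. The unit is not named in the table and was inferred from values that are not whole numbers. Reads were mapped to GRCm38 with STAR and counted with HTSeq-count by the study's methods, whereas the processing notes of the submitters list TopHat2 (2.0.11), HTSeq (0.11.2, 1.6.3) and cutadapt. The program that made the FPKM and its use of strand are not given in the sources read. FPKM keeps no fragment count, so no interval for counting error was computed.

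Values were transformed to log2(FPKM + 1), and the 11346 rows that averaged 0.5 FPKM or more were tested with limma 3.58.1 in R 4.3.3 (eBayes with a variance trend, diet as the only term, 4 residual and 4 prior degrees of freedom). P-values were two-sided, adjusted by the Benjamini-Hochberg method over all genes tested, with a threshold of 0.05. The study used DESeq2 on counts, which these values do not allow. The code was tested on simulated data. Python 3.11.15 with pandas 2.3.3 and matplotlib 3.10.9 served for sequences and figures. Table starts were raised by 1 to match GENCODE vM21, and 25 names were repeated.

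The members and gene lists were chosen with earlier results of these data known, so lists are described by counts and medians, with no test of a list. Named were all members, every other listed clock transcription regulator in the table, and of each other list the called genes, up to the 4 highest and the 4 lowest. A few listed genes enter the counts but are not reported here by name. Alternatives were other pseudocounts (0.1 and 2), filters (none, and a mean of 1 FPKM), scalings (median ratio and quantile), array weights, no variance trend, a term for the replicate number, and each liver left out. No outlier was sought in groups of 3.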

Additional observations from a re-analysis of the deposited data

How the results depend on the processing

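None of the 15 alternatives called a member higher or lower. All genes called higher and lower were 450 and 303 in the analysis as reported, 1327 and 945 with array weights, and, with 1 liver left out, 83 to 347 higher and 76 to 300 lower, with the fewest when PF-WT mouse 2 (83 and 76) or ETOH-WT mouse 3 (114 and 76) was dropped. The fold changes of Bhlhe40 and Ciart changed sign with array weights, to -0.11 and 0.43. With 1 liver left out, fold changes of both signs were found for Tef (-0.084 to 0.30), Bhlhe40 (-0.45 to 0.34), Timeless (-0.053 to 0.40), Nr1d2 (-0.20 to 0.036) and Ciart (-0.49 to 0.61). The sign turned without ETOH-WT mouse 1 for Tef, Bhlhe40 and Timeless, without ETOH-WT mouse 2 for Nr1d2 and Ciart, and without PF-WT mouse 3 for Ciart (0.21). None of these was past the threshold, and the causes were not tested. Of the fold changes of named genes under an alternative, 484 kept their direction and their side of the threshold, 33 lost the call and 8 changed sign. Median-ratio scaling moved the share of calls that were higher to 50.1%, beside 59.8% as reported, and shifted the median of all genes by -0.03.

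Livers of both diets share the replicate numbers 1 to 3, but nothing ties mice of the same number together. Deviations of same-numbered livers from their diet means correlated across genes at -0.01, -0.02 and -0.03. With the replicate number as a block, 253 genes were called higher and 201 lower, no member was called, and the adjusted p was 0.0564 for Hlf, 0.0946 for Cyp2c50 and 0.0803 for Sds.

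Depth could not be recovered from the values, so the counting error of Npas2, Bhlhe41 and Arntl2, which averaged below 0.5 FPKM, is unknown.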

Other observations

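Of 8 genes listed as targets of the PAR bZIP factors DBP, HLF and TEF, 6 were called higher in ETOH-WT livers and 0 lower, where 3.97% of all genes tested were called higher. The median log2 fold change of the 8 was 1.16, beside 0.02 over all genes. The list was chosen with its direction known from earlier results, so its count is no independent evidence. Cyp2a4 and Alas1 were the 2 that did not pass (limma adjusted p = 0.207 and 0.166). Cyp2b10, a cytochrome P450 that the nuclear receptor CAR induces, had 69.6, 96.9 and 158 FPKM in ETOH-WT livers, against 1.95, 2.33 and 4.97 FPKM in PF-WT livers (log2 fold change 4.73, limma adjusted p = 0.00113). Cyp2c37 had 896, 891 and 1122 FPKM in ETOH-WT livers, against 367, 228 and 333 FPKM in PF-WT livers (1.67, 0.00449). Cyp2a5 and Cyp2c50 had log2 fold changes of 1.39 and 1.32 (limma adjusted p = 0.0474 and 0.0399). Over the 15 alternatives their adjusted p ranged from 0.00376 to 0.168 for Cyp2a5 and from 0.0052 to 0.137 for Cyp2c50. The call of Cyp2a5 was lost without ETOH-WT mouse 1 (0.0832), ETOH-WT mouse 3 (0.116), PF-WT mouse 1 (0.118) or PF-WT mouse 2 (0.168). It was also lost with no filter (0.0548), median-ratio scaling (0.0603), quantile normalization (0.0625) and no variance trend (0.0518). The call of Cyp2c50 was lost without ETOH-WT mouse 2 (0.0980), ETOH-WT mouse 3 (0.136), PF-WT mouse 2 (0.137) or PF-WT mouse 3 (0.0894). It was also lost with quantile normalization (0.0533) and with the replicate number as a block (0.0946). Por and Nr1i3, named after their values were seen, had log2 fold changes of 0.96 and 0.70 (limma adjusted p = 0.0311 and 0.0310). Por encodes the reductase that serves the P450 enzymes, and Nr1i3 encodes CAR itself. In the 6 called genes all ETOH-WT livers lay above all PF-WT livers, as they did for 17.9% of all genes tested. A call favours genes without overlap, so this adds no evidence. For Cyp2a4 and Alas1, ETOH-WT mouse 2 lay within the PF-WT values.

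Genes listed as targets of other signals that can set the liver clock were also counted, and the signals themselves were not measured. Of 12 glucocorticoid targets, 1 was higher and 2 were lower, where 3.97% of all genes were called higher and 2.67% lower. Mt2, a metallothionein, had 275, 151 and 143 FPKM in ETOH-WT livers, against 36.6, 32.8 and 54.8 FPKM in PF-WT livers (log2 fold change 2.14, limma adjusted p = 0.00748). Tat, which encodes tyrosine aminotransferase, had 551, 441 and 563 FPKM in ETOH-WT livers, against 974, 1081 and 1286 FPKM in PF-WT livers (-1.10, 0.00762). Sds, the serine dehydratase gene, had a log2 fold change of -0.73 (0.0310), and its call was lost without ETOH-WT mouse 2 (0.0710), ETOH-WT mouse 3 (0.118), PF-WT mouse 2 (0.125) or PF-WT mouse 3 (0.0755). Of 10 tested genes that respond to body temperature, 0 were called by limma. At an unadjusted p under 0.05, 1 was higher and 2 were lower, against 23.7% of all genes in either direction.

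Most genes listed for the fed liver were lower in ETOH-WT livers. Of 12 such genes, 9 were called lower and 0 higher, where 2.67% of all genes tested were called lower. The median log2 fold change was -1.32, beside 0.02 over all genes. This list too was chosen with earlier results of these data known, so its count is no independent evidence. The lowest were Pnpla3 (-4.30), Scd1 (-4.14), Acly (-2.24) and Fasn (-2.16), and most of the list is lipid synthesis under SREBP1c and ChREBP. Pnpla3 had 2.06, 1.04 and 0.371 FPKM in ETOH-WT livers, against 31.6, 45.1 and 42.6 FPKM in PF-WT livers. Of 12 genes of the fasted liver, 2 were higher, among them Creb3l3 (0.63), where 3.97% of all genes were called higher. The 1 lower gene was Tat, which also stands among the glucocorticoid targets. Calls were lost without PF-WT mouse 2 for Acly (limma adjusted p = 0.0530), Fasn (0.0589) and Creb3l3 (0.0714), and without ETOH-WT mouse 3 for Creb3l3 (0.0610). The study recorded food intake daily and reports similar intake of the liquid diet in pair-fed and ethanol-fed mice. The intake of these 6 mice was not analysed here.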
